A study of Mus musculus with 30 samples.

Results

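Haematopoietic stem cells (HSCs) taken 6 days after 5-fluorouracil (5-FU) were compared with HSCs of untreated mice, in 4 libraries a group, which are 8 of the 30 libraries of the series. Each library was made from total RNA of 100 sorted cells. The mice were C57BL/6, aged 8 to 10 weeks, and the bone marrow cells were sorted as CD150+CD48-EPCR+Lineage-, in the treated and the untreated mice alike. The only labelled difference is 5-FU, given 6 days before the sort, and no genetic change is named in either group. The series also holds HSCs taken 10 days after 5-FU (6 libraries) and uncultured HSCs of another control set (4 libraries). The day-10 libraries share the filter, scaling and spread estimate of the fits behind the tests of gene changes. Otherwise both sets are used to set the day-6 values apart, and the uncultured libraries also as alternative controls. The labels do not say whether replicates came from separate mice, so p-values measure only the spread between libraries. For gene changes these include the day-10 libraries.

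HSCs sustain blood production for life and in the steady state are mostly quiescent. 5-FU is a pyrimidine analogue that is toxic to dividing cells. The loss of progenitors is followed by a phase in which surviving HSCs divide, after which they return to quiescence. A dividing cell copies its nucleus, mitochondria, membranes and cytoskeleton along with its DNA, and genes of all these parts are described below.

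Exon reads numbered 5208722 to 6862215 per untreated library and 6473093 to 8289885 per day-6 library, and 14588 to 14768 genes were detected. Values are CPM, counts of exon reads on a gene scaled by the library's TMM-adjusted total, as mean ± SD over the 4 libraries of a group where an error is given. Changes are log2 changes, day 6 minus untreated, from edgeR's quasi-likelihood test, and a gene is said to have risen or fallen where the Benjamini-Hochberg adjusted p over all genes was under 0.05. Genes of 2 surface proteins required in the sort and 2 other HSC genes were read in both groups. Procr, which encodes EPCR, lay between 64.7 and 78.8 CPM in the 8 libraries, and Slamf1 (CD150) between 26.9 and 42.98. Ly6a, which encodes the surface protein Sca-1, lay between 75.5 and 112 CPM, and Mecom, a transcription factor gene, between 433 and 568, and none of these 4 passed the test. Cd48, absence of which was required in the sort, was at 0.624, 0.164, 0.935 and 0 CPM in the untreated and 6.05, 2.56, 1.82 and 3.55 in the day-6 libraries, low in all 8 but higher at day 6 without overlap (log2 change 3.02 ± 0.67, SE, adjusted p = 0.00142). With the uncultured libraries as controls this call was lost (log2 change 0.49, adjusted p = 0.387). Of 20 HSC markers tested 2 rose (Cd48 and Esam, 10%) and 11 fell (55%), against 25.7% of all genes tested in each direction. Of the defining HSC genes, Kit, the stem cell factor receptor, fell from 1276 ± 170.03 to 536 ± 31.5 CPM and Hlf, a transcription factor of HSCs, from 1297 ± 111 to 471 ± 9.24 CPM.

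Libraries of both groups held transcripts of other cells. Untreated replicate 3 stood apart for granulocyte transcripts, with S100a8 at 3.59, 2.47, 911 and 2.44 CPM in untreated replicates 1 to 4. Its summed level of 15 granulocyte markers was 2063 CPM, against 32.2 in the lowest untreated library and 13.6 to 15.1 at day 6. Most of the day-6 sum was Prtn3, with a mean of 12.8 CPM there and 33.1 in the untreated libraries. The defining markers Mpo and Elane were low in both groups. Their highest values were 1.68 and 1.12 CPM in the untreated and 0.148 and 0 in the day-6 libraries. Day-6 replicate 1 stood apart for macrophage transcripts, with Csf1r at 96.4, 6.11, 1.46 and 10.5 and Adgre1 (F4/80) at 46.9, 4.12, 3.76 and 10.7 CPM in day-6 replicates 1 to 4, and its macrophage marker sum was 2146 CPM against 322 to 526 in the untreated libraries. Of 16 macrophage markers tested 10 rose with that library (62.5%, against 25.7% of all genes tested) and 2 without it. Without that library Csf1r had a log2 change of 0.47 (adjusted p = 0.604) and Adgre1 of 0.75 (0.354). The median log2 change of the list was 1.74 with that library and 0.67 without it. Day-6 replicate 4 was also above all untreated libraries for some markers, with Mrc1 at 21.2, C1qb at 17.1 and Vcam1 at 41.7 CPM. The highest untreated values of these were 3.94, 6.46 and 8.18 CPM, whereas its Lyz2, at 177 CPM, was below all untreated libraries. Erythroid markers summed to 3450.3 to 7629.5 CPM in the untreated libraries and 1164 to 1419.96 at day 6, with Slc4a1 at 0 in all 4 day-6 libraries. Of 15 erythroid markers tested 13 fell (86.7%, against 25.7% of all genes tested). Lymphocyte markers summed to 62.6 to 153 and 32.3 to 40.01 CPM, with Cd3e at 0 in all 8. Megakaryocyte markers, many of which HSCs express themselves, summed to 2315 to 2377 and 1183 to 1494 CPM, and endothelial and stromal markers to 830.3 to 891 and 601 to 670.2. In bulk samples, fewer cells of a type and less RNA per cell cannot be told apart.

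Of 12886 genes tested, 3308 rose (25.7%) and 3314 fell (25.7%), and the median log2 change over all of them was -0.04. Changes of at least 2-fold were made by 877 genes that rose (6.81%) and 1106 that fell (8.58%), changes of at least 4-fold by 185 (1.44%) and 271 (2.1%), and changes of at least 8-fold by 37 (0.287%) and 86 (0.667%). Without both libraries that stood apart, 2913 genes rose and 2867 fell, of which 2842 and 2701 were among those called with all 8. For 6250 genes (48.5%) the 2 ranges of CPM were apart. Because so many genes were called in each direction, a functional group is read below against these shares. With the 4 uncultured libraries as controls in place of the untreated ones, 3443 genes rose and 3236 fell. Only 2738 of the 3308 rises and 2526 of the 3281 falls that were tested in both settings were shared. Of the genes named as changed Alg2, Cd48, Eef2, Gng5, Hbb-bt, Itpr1, Myo5c, Myo6, Plaur and Syne2 were not called with the uncultured controls.

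The largest rises belonged mostly to genes of mitosis. Of the 30 largest, ranked among genes with a clear level and no overlap between groups, the smallest was a log2 change of 2.44 ± 0.28 (SE) for Mcm10, a factor that opens replication origins. They include the cyclin genes Ccnb1, Ccnb2 and Ccna2, the kinases Plk1, Aurkb, Nek2 and Pbk, the spindle motors Kif2c, Kif4, Kif20a, Kifc1 and Cenpe, and Espl1, the protease separase that parts sister chromatids. Plk1, the polo kinase of mitotic entry, was at 9.52, 21.5, 10.3 and 2.01 CPM in untreated replicates 1 to 4 and at 76.5, 87.03, 114 and 59.3 CPM in day-6 replicates 1 to 4. Untreated replicate 2 was the highest untreated library and replicate 4 the lowest. All 4 day-6 libraries were above both, as the ranking required (log2 change 2.97 ± 0.41, SE, adjusted p = 2.43e-05). The same untreated replicate 2 was the highest of its group for 26 of the 30 genes and replicate 4 the lowest for 22, so the untreated libraries differed among themselves in these transcripts. Without untreated replicate 2 the log2 change was 3.57 for Plk1, 4.50 for Ube2c, 3.99 for Ccnb2, 3.56 for Kpna2, 3.79 for Nek2, 3.64 for Kif4, 3.51 for Espl1, 3.44 for Ccna2 and 3.43 for Aurkb, each larger than with it.

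Ube2c, the ubiquitin-conjugating enzyme with which the anaphase-promoting complex marks cyclin B for destruction, was at 4.21, 30.6, 8.22 and 0.718 CPM in the untreated libraries and 103, 97.96, 129 and 48.03 at day 6. Ccnb2, which encodes cyclin B2, was at 9.83, 35.5, 7.48 and 2.01 and 98.3, 105, 121 and 78.8 CPM. Kpna2, an importin alpha that carries proteins into the nucleus, was at 13.7, 45.2, 12.9 and 16.9 and 179.5, 179, 213 and 118 CPM. In all 3 genes the lowest day-6 library was above the highest untreated one, as the ranking required, and day-6 replicate 4 was the lowest of its group. Their changes were 3.13, 2.88 and 2.95 on the log2 scale, and Ube2c was without a call in its few intron reads (2.03).

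The promoters of these genes share short elements, and 4 are printed to show them. Each runs 5′ to 3′ from 150 bases before to 10 bases after the start of transcription (RefSeq, GRCm38.p6). Capitals mark TTTGAA, the cell cycle genes homology region (CHR) bound by the MuvB complexes, and CCAAT, the box bound by NF-Y, on either strand (TTCAAA and ATTGG on the other). The windows are Ube2c at chr2:164769779-164769938, plus strand, Ccnb2 at chr9:70421545-70421704, minus strand, Kpna2 at chr11:106999516-106999675, minus strand, and Plk1 at chr7:122159285-122159444, plus strand.
Ube2c: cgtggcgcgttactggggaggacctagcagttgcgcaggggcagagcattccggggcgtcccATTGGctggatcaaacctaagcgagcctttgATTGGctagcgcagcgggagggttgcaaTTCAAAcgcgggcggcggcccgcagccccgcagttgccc
Ccnb2: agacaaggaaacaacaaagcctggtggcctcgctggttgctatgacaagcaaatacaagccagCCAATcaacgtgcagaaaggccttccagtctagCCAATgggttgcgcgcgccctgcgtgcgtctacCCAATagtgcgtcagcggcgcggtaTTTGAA
Kpna2: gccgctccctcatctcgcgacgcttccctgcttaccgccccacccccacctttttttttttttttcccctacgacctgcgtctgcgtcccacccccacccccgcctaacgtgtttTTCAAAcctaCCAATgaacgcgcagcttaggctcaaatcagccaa
Plk1: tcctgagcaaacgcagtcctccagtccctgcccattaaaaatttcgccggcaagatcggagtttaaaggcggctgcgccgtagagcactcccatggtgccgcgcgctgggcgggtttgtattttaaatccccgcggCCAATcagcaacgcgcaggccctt
Ube2c has 1 CHR and 2 CCAAT boxes in this window, Ccnb2 has 1 and 3, Kpna2 has 1 and 1, and Plk1 has 1 CCAAT box and no TTTGAA.

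Over whole entries of the promoter table, 250 bases before to 50 after the start, TTTGAA on either strand was in 35.8% of 165 promoters of 141 genes that rose at least 4-fold. It was in 13.4% of 261 promoters of 199 genes that fell at least 4-fold and in 12.4% of all 13157 promoters of 10324 tested genes in the table. TTTGAA together with CCAAT was in 26.1%, 6.897% and 5.17% of the same 3 sets, and CCAAT alone or with it in 52.1%, 32.6% and 37.9%. An E2F site (TTTCCCGC, TTTCGCGC, TTTGCCGC or TTTGGCGC) was in 6.06%, 0.766% and 3.88%. The promoters of genes that fell held the GATA factor motif AGATAA in 14.6%, against 3.64% of those that rose and 6.66% of all, and the ETS motif CCGGAAGT in 1.53% against 7.74% of all. GATA factors are known regulators of erythroid genes, which are among the genes that fell, and a link to this share was not tested. TATAAA, the motif of the TATA-binding protein, was in 11.9% of promoters of genes that fell, 8.48% of those that rose and 7.28% of all. The other motifs searched were the cAMP response element TGACGTCA, the CArG box, the NRF1 motif, the AP-1 site TGANTCA, known for binding FOS and JUN proteins, and the E-box CACGTG of basic helix-loop-helix factors. Matches of different motifs were counted separately and may overlap. These shares are a description with no test, and several entries can belong to 1 gene. Among genes that rose at least 2-fold, TTTGAA was in 20.7% of promoters, TTTGAA with CCAAT in 13.2% and an E2F site in 9.95%. Of those that fell at least 2-fold, an E2F site was in 1.62%, the ETS motif in 2.53%, the GATA factor motif in 9.84% and TATAAA in 10.1%. In the 250 bases before the start alone, genes that rose at least 4-fold had TTTGAA in 23.6%, TTTGAA with CCAAT in 15.8% and an E2F site in 3.64%. The shares of all promoters in that window were 11.1%, 4.29% and 3.18%.

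**Figure D1:**
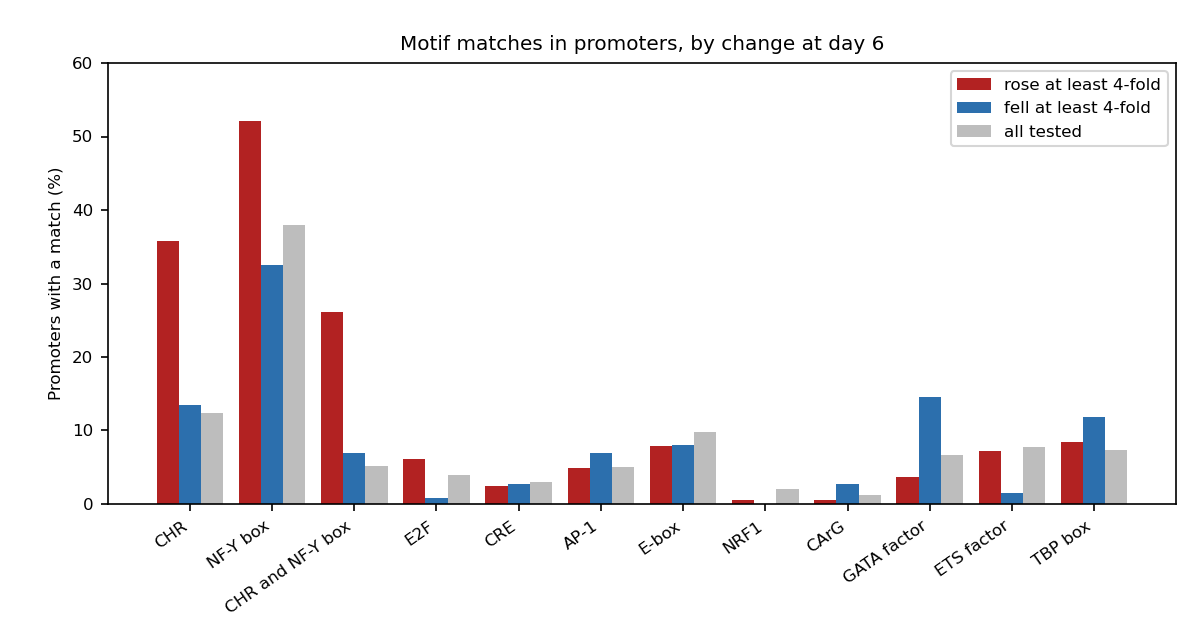
Share of promoters (vertical axis, %) holding each motif (horizontal axis) on either strand, among entries of genes that rose at least 4-fold (red), fell at least 4-fold (blue) and all tested genes in the table (grey). The CHR element alone and with the NF-Y box has the widest gaps between red and grey, and the GATA factor motif is more frequent in blue than in grey.

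A few of the 30 largest rises lie outside the cell cycle. Gem, a small GTP-binding protein of the RGK family known for restraining calcium channels, was at 29.04, 12.5, 23.9 and 21.4 CPM in the untreated libraries and 709, 796, 644 and 704 at day 6, a log2 change of 5.04 ± 0.47 (SE; adjusted p = 9.54e-07). Its 4 day-6 values lay close together, and its intron reads rose as well (3.54). At day 10 Gem was at 240.4 ± 131 CPM over 6 libraries, lower than at day 6 (adjusted p = 0.00359). Lgals1, which encodes the sugar-binding lectin galectin-1, was at 10.6, 11.01, 10.7 and 12.1 and 116, 56.6, 66.3 and 67.2 CPM, and the untreated libraries were nearly equal (log2 change 2.78 ± 0.20, SE, adjusted p = 1.43e-07). Mthfd2, a mitochondrial folate enzyme that is low in most resting adult cells, rose from 4.87 ± 1.62 to 32.3 ± 5.37 CPM. Fanca, part of the Fanconi anaemia complex that repairs DNA crosslinks, rose from 23.7 ± 9.63 to 133 ± 18.8 CPM.

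Some large rises rested on day-6 replicate 1, the library with the most macrophage transcripts. Ccl6, a chemokine of myeloid cells with the largest fitted rise of all, was at 0, 0.329, 0 and 0.574 CPM in the untreated libraries and 221, 1.42, 1.09 and 2.01 at day 6. Day-6 replicate 1 alone was high. Lgmn, which encodes the lysosomal protease legumain, was at 5.31, 11.01, 7.29 and 4.31 and 141, 19.2, 11.4 and 27.95 CPM, so that 1 of the other day-6 libraries lay just above the untreated range. Without day-6 replicate 1 the log2 change was 2.56 for Ccl6 in place of 7.77 and 1.48 for Lgmn in place of 2.84. Among genes with a mean of at least 30 CPM at day 6, the 8 with the widest relative spread were all highest in that library: Ccl6, Lgals3, Lpl, Hmox1, Slc40a1, Lyz2, Ctss and Lrp1. Hmox1, heme oxygenase, was at 722, 40.2, 34.2 and 91.6 CPM, and Slc40a1, the iron exporter ferroportin, at 257, 14.1, 13.4 and 48.6. Without that library the calls of Hmox1 (0.62, adjusted p = 0.386), Slc40a1 (1.47, 0.0677), Lpl (1.13, 0.242), Lgals3 (0.25, 0.76) and Ctss (0.48, 0.239) were lost, and Lyz2 and Lrp1 were not called with it.

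**Figure D2:**
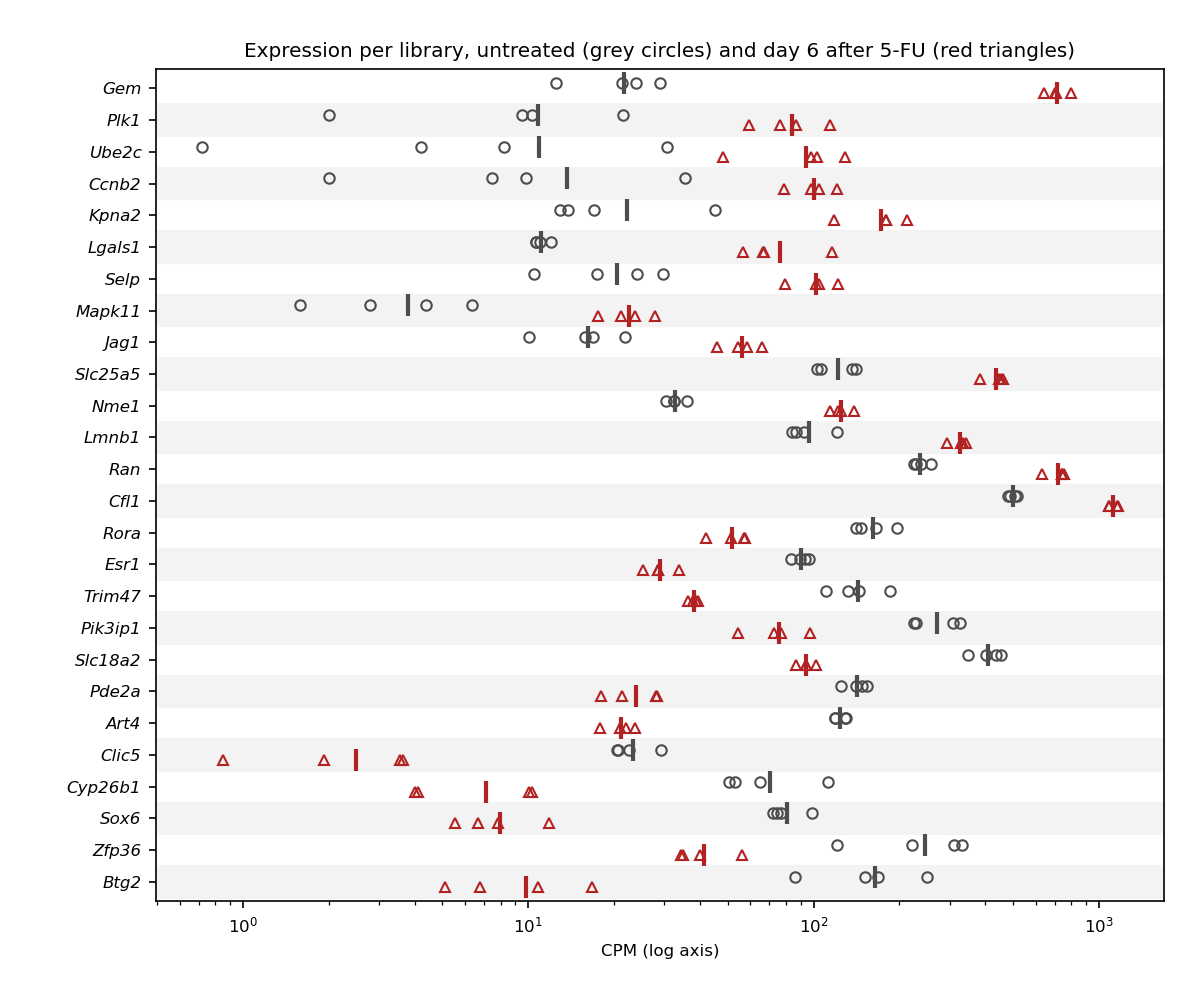
CPM on a log axis of 26 genes in the 4 untreated (grey circles) and 4 day-6 libraries (red triangles), each with its mean (bar). Rising genes are at the top and falling genes at the bottom, and the 2 groups do not overlap for any gene shown.

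The largest falls were spread over many functions. Beside erythroid genes and S100a8, 8 of the 30 are known as immediate early genes, whose transcripts appear within minutes of a stimulus: Egr3, Egr1, Btg2, Nr4a1, Junb, Fos, Zfp36 and Ppp1r15a. Egr3, a zinc finger transcription factor, was at 71.03, 23.8, 100.0001 and 28.4 CPM in untreated and 1.18, 1.14, 0.8498 and 0.154 in day-6 libraries. Zfp36, an RNA-binding protein (tristetraprolin) that speeds the decay of cytokine mRNAs, was at 332, 121, 221 and 309 and 55.95, 40.04, 34.8 and 34.4 CPM. The untreated libraries varied widely in these genes, with replicate 2 the lowest for 18 of the 30 largest falls. The groups do not overlap in any of the 30 because the ranking took only such genes.

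For 2 of these genes the promoter is shown, because it holds an element of stimulus-driven transcription: the CArG box bound by serum response factor in Zfp36 (chr7:28379219-28379378, minus strand) and the cAMP response element TGACGTCA in Btg2 (chr1:134079146-134079355, minus strand). Capitals mark the element.
Zfp36: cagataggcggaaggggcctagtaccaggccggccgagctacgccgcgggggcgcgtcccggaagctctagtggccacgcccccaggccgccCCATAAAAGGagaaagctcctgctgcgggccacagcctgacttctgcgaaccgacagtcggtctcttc
Btg2: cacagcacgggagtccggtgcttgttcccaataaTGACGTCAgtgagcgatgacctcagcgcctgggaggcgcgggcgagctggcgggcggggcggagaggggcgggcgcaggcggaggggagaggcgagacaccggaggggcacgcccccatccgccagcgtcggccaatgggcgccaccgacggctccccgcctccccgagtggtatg
The CArG box was in 2.68% of promoters of genes that fell at least 4-fold, 0.606% of those that rose and 1.26% of all, and TGACGTCA in 2.68%, 2.42% and 2.95%, so neither was frequent in any set. At day 10 Zfp36 was at 185 ± 38.5 CPM and Btg2 at 95.7 ± 45.04 over 6 libraries. Of the 30 largest falls, 18 were higher at day 10 than at day 6 and 2 were lower in the same fit. These genes were picked for low day-6 values, which that contrast uses again, so the choice favours higher values at day 10. The shares over all genes are not given here, so no recovery is read from the count. The 23 of the 30 with enough intron reads for a test were all lower at day 6 in intron reads too.

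The other large falls include transcription factors, enzymes and surface proteins. Sox6, an HMG box factor known in erythroid and cartilage cells (chromosome 7, 115470872 to 116041138), was at 74.6, 71.99, 98.7 and 76.8 CPM in untreated and 11.8, 7.81, 6.68 and 5.56 in day-6 libraries (log2 change -3.34 ± 0.40, SE, adjusted p = 8.00e-06). Zbtb16 (PLZF), a zinc finger repressor, fell from 68.8 ± 66.9 to 5.82 ± 3.73 CPM. For Zbtb16, untreated replicate 1 was far above the other 3, and without it the log2 change was -2.62 in place of -3.57. Cyp26b1, the cytochrome P450 that breaks down retinoic acid, was at 112, 64.9, 50.5 and 52.98 and 10.3, 4.12, 10.1 and 4.02 CPM. Art4, the ADP-ribosyltransferase of the Dombrock blood group (chromosome 6, 136848451 to 136857600), was at 119, 129, 119 and 130.1 and 20.96, 22.01, 17.8 and 23.6 CPM. The 4 values lay close together in both groups, and its log2 change of -2.56 ± 0.12 (SE) had the smallest p of the 30 falls (adjusted p = 8.67e-09). Pde2a, a phosphodiesterase that cleaves cyclic AMP and cyclic GMP, was at 147, 125, 140.4 and 153 and 28.2, 18.03, 21.2 and 28.1 CPM. For Sox6, Cyp26b1, Art4 and Pde2a the highest day-6 library was far below the lowest untreated one, though some gap was a condition of the ranking.

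Also among the 30 were Mmp28, a matrix metalloproteinase (41.3 ± 5.21 to 4.67 ± 0.832 CPM), Ctsf, the lysosomal cathepsin F (42.4 ± 1.01 to 6.47 ± 1.99 CPM), Tns2, a tensin of focal adhesions (187 ± 41.4 to 30.1 ± 3.97 CPM), Itgb3, the integrin beta 3 chain (230.2 ± 163 to 33.3 ± 5.09 CPM), and Fam46c, a cytoplasmic poly(A) polymerase (53.2 ± 16.4 to 7.06 ± 1.72 CPM). Itgb3 is also a megakaryocyte marker, of which 8 of 13 tested fell and 0 rose, and it varied among untreated libraries (443, 272, 103 and 103 CPM). Clca3a1, of the chloride channel accessory family, fell from 33.5 ± 14.4 to 4.98 ± 1.14 CPM and was at 116 ± 60.2 CPM at day 10, above both earlier groups. Shisa9, a membrane protein described as a partner of AMPA receptors (chromosome 16, 11984113 to 12270904), was at 10.6, 6.74, 13.6 and 8.62 CPM in the untreated libraries and 0 in all 4 day-6 libraries. Against a floor of 3 counts per library it was at least 21.4-fold lower, and its intron reads fell too. By the same rule of 0 reads in 1 group and a mean of at least 5 CPM in the other, no gene was read at day 6 alone, and the genes read in untreated libraries alone included the erythroid genes Hba-a2 and Slc4a1, which had reads in all 4. The granulocyte genes S100a9, Chil3, Abca13, Lcn2 and Cd177 met the rule through untreated replicate 3, with S100a9 at 0.624, 0.164, 267 and 0.718 CPM in the untreated libraries, and without that library their means were between 0 and 0.502 CPM. The lymphocyte gene Rag1 was at 0, 41.1, 25.4 and 0 CPM in the untreated libraries, so it was read in only 2 of them. Cdh23, a large cadherin, fell from 85.3 ± 38.1 to 14.6 ± 5.05 CPM.

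Genes of functional groups follow, each list with its members tested and its calls, beside 25.7% of all genes called in each direction. No set test was made. Without both libraries that stood apart, the number that rose stayed within 1.5 times for all functional lists but the GIMAP genes, and the number that fell for all of them. The share that rose was largest in nuclear transport: of 40 nuclear pore and transport genes 38 rose and 0 fell, with a median log2 change of 0.83. For the lists below in which edgeR called 0 members in a direction, DESeq2 called 0 as well, and 0 members had an unadjusted p under 0.05, except for 1 nuclear receptor that was higher. Ran, the GTPase that gives nuclear transport its direction, was at 229, 257, 224 and 237 CPM in the untreated libraries and 631, 744, 755 and 743 at day 6. Every day-6 library was far above every untreated one, and day-6 replicate 1 was the lowest of its group (log2 change 1.60 ± 0.13, SE, adjusted p = 3.07e-07). Ndc1, a membrane anchor of the pore, rose from 33.3 ± 2.07 to 109 ± 7.59 CPM, and Ipo9, an importin, from 219 ± 14.02 to 403 ± 27.5 CPM. In intron reads 35 of 40 of these genes rose and 0 fell, against 16.6% and 12.6% of the 11780 tested genes with an intron test.

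Genes of the nuclear envelope moved both ways. Of 43 genes of the envelope, telomeres and cohesin 20 rose and 12 fell. Lmnb1, lamin B1 of the lamina beneath the inner membrane, was at 92.7, 120.5, 86.9 and 84.3 and 294, 342, 335 and 329 CPM, and every day-6 library was far above every untreated one (log2 change 1.76 ± 0.11, SE, adjusted p = 5.71e-08). Lbr, the lamin B receptor, rose from 218 ± 21.6 to 351 ± 11.6 CPM, and Nop10, of the telomerase and snoRNA complexes, from 53.7 ± 6.59 to 110.03 ± 9.28 CPM. The fallen genes with the smallest p were those of inner membrane proteins and of the LINC bridge to the cytoskeleton: Lemd2 (90.95 ± 6.83 to 59.6 ± 2.74 CPM), Sun2 (253 ± 28.8 to 148 ± 22.8 CPM) and Syne2 (nesprin-2, 358 ± 24.3 to 252 ± 7.06 CPM).

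Of 45 core splicing factors 39 rose and 2 fell (median 0.71). Snrpe, an Sm core protein of the spliceosomal snRNPs, rose from 27.2 ± 1.504 to 65.5 ± 3.94 CPM, Lsm2 of the LSm ring from 37.7 ± 7.12 to 92.1 ± 6.05 CPM, and Sf3b3 of the U2 snRNP from 314 ± 24.3 to 602 ± 47.1 CPM. The 2 that fell were Srsf5, an SR protein (113 ± 14.6 to 66.8 ± 1.25 CPM), and Snrnp70 of the U1 snRNP (163 ± 19.2 to 123 ± 3.07 CPM). Regulators of splicing did not share this direction: of 27, 8 rose and 11 fell. Ptbp1, the polypyrimidine tract binding protein, rose from 419.9 ± 8.57 to 758 ± 27.6 CPM, and the cold-inducible Rbm3 from 130.2 ± 29.97 to 292 ± 23.97 CPM, while the helicase gene Ddx5 fell from 1527 ± 41.4 to 970.04 ± 38.4 CPM and Luc7l2, which binds the U1 snRNP, from 479.8 ± 59.5 to 244 ± 6.49 CPM.

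Of 44 translation factors 32 rose and 5 fell (median 0.45). The release factor genes Etf1 and Gspt1, which end translation at stop codons, rose from 57.9 ± 4.14 to 128 ± 10.9 CPM and from 111 ± 5.65 to 204 ± 11.8 CPM. Eef2, the translocation factor of the ribosome and among the most abundant transcripts of the untreated cells, fell from 4522 ± 140.4 to 3940.2 ± 95.1 CPM. Eef2k, the kinase that inactivates the eEF2 protein, fell from 377 ± 17.2 to 189.98 ± 17.8 CPM, and Eif4a2, a paralog of the helicase eIF4A1, from 186 ± 6.85 to 123 ± 9.84 CPM. Of 55 genes of RNA decay and small RNA pathways 19 rose and 15 fell. Among them the deadenylase subunits Cnot9 (67.8 ± 12.4 to 148 ± 7.85 CPM) and Cnot6 (104 ± 11.01 to 169.6 ± 10.4 CPM) rose, while Ago4, an Argonaute (48.4 ± 3.4004 to 21.5 ± 4.02 CPM), and Tnrc6b, its GW182 partner (488 ± 17.01 to 349 ± 15.6 CPM), fell.

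Genes that bring proteins into organelles rose in large number. Of 31 mitochondrial import genes 28 rose and 0 fell (median 0.80), among them Timm50, a receptor of the inner membrane translocase (28.4 ± 3.35 to 66.7 ± 3.78 CPM), Tomm40, the channel of the outer membrane (37.1 ± 5.09 to 87.5 ± 6.16 CPM), and the matrix chaperone gene Hspa9 (128 ± 9.15 to 267 ± 19.1 CPM). Of 44 genes of entry into the endoplasmic reticulum (ER) and N-glycosylation 33 rose and 1 fell (median 0.58). Mogs, the glucosidase that starts the trimming of N-glycans, rose from 76.7 ± 5.103 to 166 ± 10.04 CPM, Spcs3 of the signal peptidase from 92.5 ± 5.79 to 192 ± 13.997 CPM, and Alg8, a glucosyltransferase, from 23.01 ± 2.94 to 63.1 ± 2.76 CPM, while the mannosyltransferase gene Alg2 fell from 80.1 ± 10.8 to 65.4 ± 5.12 CPM, a call lost without untreated replicate 2 (adjusted p = 0.069) or day-6 replicate 4 (0.0506). Further along the secretory route the share was lower: of 39 COPI and COPII genes 19 rose and 2 fell, with the KDEL receptor gene Kdelr2 (126 ± 10.3 to 215 ± 15.3 CPM) and Tmed2 (143 ± 7.97 to 251 ± 21.2 CPM) among those that rose and the Golgi SNARE gene Stx5a (93.4 ± 14.99 to 53.4 ± 4.78 CPM) among those that fell.

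Of 47 endocytosis and Rab genes 18 rose and 6 fell. Cltc, the clathrin heavy chain, rose from 407 ± 21.4 to 608 ± 35.2 CPM. The paralogs of the early endosome GTPase RAB5 moved in opposite directions, Rab5c from 54.8 ± 1.43 to 81.2 ± 3.28 CPM and Rab5b from 121 ± 8.33 to 86.5 ± 2.69 CPM. Rab37, a GTPase of secretory granules, fell from 87.01 ± 16.9 to 37.1 ± 4.57 CPM. Lists with short exons, such as mitochondrial import (median exon length 1596 bases), splicing factors (2114) and ER entry (2590.5), were below the median of all genes (3498 bases), but that of nuclear pore genes (4769) was above it. Exon length moved with the change over all genes, as described below, and its part in these counts was not tested.

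Of 35 purine synthesis and salvage genes 22 rose and 3 fell (median 0.54). Nme1, a nucleoside diphosphate kinase that supplies nucleotide triphosphates, was at 32.3, 35.99, 32.5 and 30.4 CPM in the untreated and 114, 121, 139 and 125 in the day-6 libraries. The groups were far apart (log2 change 1.93 ± 0.15, SE, adjusted p = 2.96e-07), though reads shared with its near copy Nme2 make the level uncertain. Paics and Pfas, enzymes of new purine synthesis, rose from 135 ± 2.18 to 299 ± 22.3 CPM and from 216 ± 9.22 to 447 ± 39.2 CPM. The falls were those of AMP deaminases (Ampd3, 44.7 ± 8.14 to 22.7 ± 3.46 CPM, and Ampd2, 473 ± 25.8 to 413 ± 21.4 CPM) and of adenylate kinase Ak4 (43.96 ± 8.55 to 21.5 ± 3.19 CPM). The call of Ampd2 was lost without untreated replicate 4 (adjusted p = 0.064) or day-6 replicate 1 (0.0635). Pnp2, a purine nucleoside phosphorylase with a near-identical neighbour Pnp, rose from 6.701 ± 3.88 to 40.04 ± 4.05 CPM.

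Of 54 amino acid and nutrient transporters 18 rose and 7 fell. Slc25a5, the adenine nucleotide translocator that exchanges ATP for ADP across the mitochondrial membrane, was at 106, 137, 103 and 140.4 and 383, 455, 462 and 446 CPM. Slc7a5, the large neutral amino acid transporter LAT1, was at 68.7, 91.4, 98.5 and 94.05 and 246, 272, 327 and 272 CPM. Neither gene's groups overlapped, and their changes were 1.84 and 1.66 on the log2 scale. Slc16a1, the lactate and pyruvate carrier MCT1, rose from 44.04 ± 6.22 to 122 ± 15.3 CPM. In the other direction, Slc18a2, the vesicular monoamine transporter VMAT2 that loads amines into granules, was at 436, 453, 403 and 348 CPM in untreated and 102, 86.9, 94.2 and 93.7 in day-6 libraries (log2 change -2.12 ± 0.18, SE, adjusted p = 4.66e-07). Slc38a9, the lysosomal arginine sensor of mTORC1, fell from 137 ± 12.2 to 80.3 ± 11.8 CPM.

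Of 36 genes of iron, heme and copper 11 rose and 6 fell, and 7 rose without day-6 replicate 1. Blvra, biliverdin reductase, rose from 9.34 ± 1.79 to 22.7 ± 4.21 CPM. Alas2, the erythroid starting enzyme of heme synthesis, fell from 46.3 ± 12.9 to 8.98 ± 1.44 CPM, Ppox, a later enzyme of that route, from 76.3 ± 7.86 to 37.3 ± 4.44 CPM, and the mitochondrial iron importer gene Slc25a37 from 265 ± 21.6 to 153 ± 7.26 CPM. The erythroid marker sum was lower in the same libraries, and its part in these 3 falls was not tested.

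**Figure D3:**
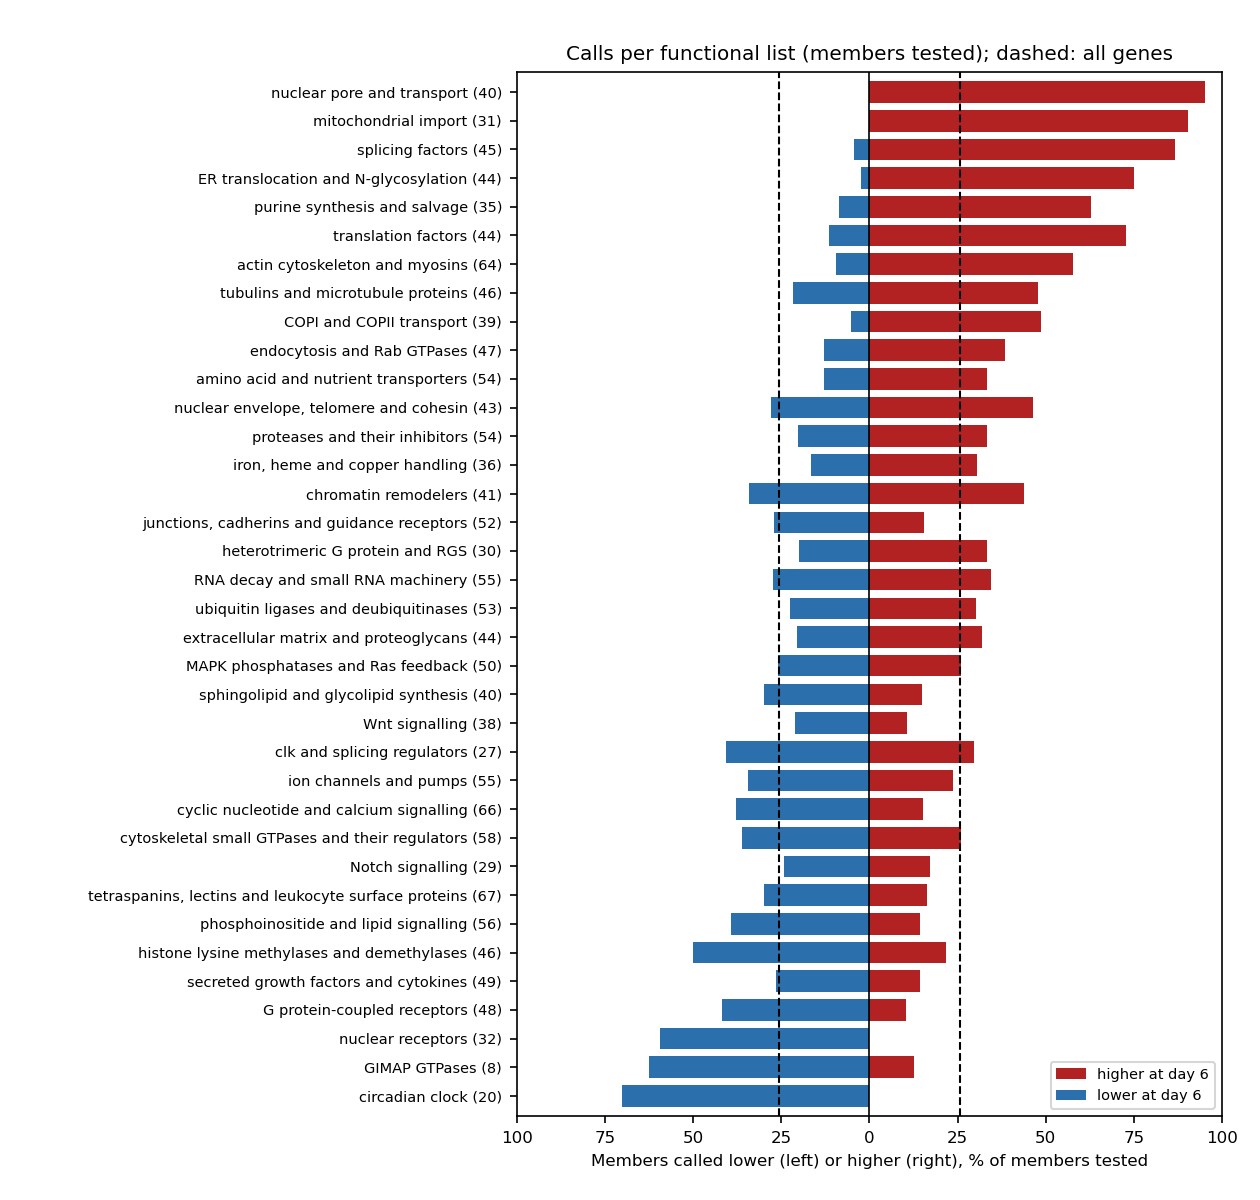
Members called higher (right, red) or lower (left, blue) at day 6 in each functional list, as a percentage of its members tested (number in brackets), in the order of the median log2 change. Dashed lines are the shares of all genes, 25.7% each way; nuclear pore, mitochondrial import and splicing factors extend far beyond the right line, and nuclear receptors and clock genes reach only to the left.

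Of 64 actin and myosin genes 37 rose and 6 fell (median 0.36). Cfl1, the filament-cutting cofilin, was at 482, 487, 508 and 518 CPM in the untreated and 1089, 1087, 1153 and 1168 in the day-6 libraries. Its day-6 values lay within a narrow band above all untreated values (log2 change 1.17 ± 0.06, SE, adjusted p = 1.34e-08). Actb, beta-actin, often taken as a stable reference gene, was at 4289, 4463, 5202 and 4854 and 9079.95, 8269, 8130.3 and 8223 CPM, also without overlap. Pfn1, the monomer-binding profilin, rose from 220.5 ± 4.37 to 435 ± 9.43 CPM. Among those that fell were the unconventional myosins Myo5c (112 ± 17.7 to 63.5 ± 4.41 CPM) and Myo6 (27.3 ± 3.28 to 15.8 ± 3.26 CPM) and the bundling protein gene Fscn1 (45.1 ± 9.03 to 24.97 ± 8.103 CPM).

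Of 46 tubulin and microtubule genes 22 rose and 10 fell. Tuba1b and Tubb5, main alpha and beta tubulins, rose from 780.03 ± 125 to 2084 ± 39.04 CPM and from 1212 ± 166 to 2383 ± 45.6 CPM, and the dynein light chain gene Dynll1 from 24.9 ± 5.57 to 75.5 ± 13.6 CPM. Kif21b, a kinesin that slows microtubule growth, fell from 201 ± 41.1 to 89.6 ± 14.4 CPM, and Mapre3, an end-binding protein, from 14.2 ± 2.43 to 6.94 ± 0.728 CPM. Tubulin and actin genes have near-identical relatives and processed copies, so single values are uncertain. Of 58 small GTPases of the cytoskeleton and their regulators 15 rose and 21 fell. The GTPase-activating proteins of dividing cells Arhgap11a and Arhgap19 rose from 17.4 ± 8.72 to 72.8 ± 12.9 CPM and from 8.92 ± 4.47 to 42.4 ± 7.62 CPM, Rac1 rose from 322 ± 25.4 to 497 ± 31.6 CPM, and Rhob, which is also an immediate early gene, fell from 137 ± 49.4 to 34.5 ± 7.54 CPM.

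Falls prevailed among nuclear receptors and clock genes, in which no member rose against the untreated libraries. Of 32 nuclear receptors and their partners 19 fell (median -0.47). Esr1, estrogen receptor alpha, was at 89.4, 96.5, 93.3 and 83.4 CPM in the untreated and 25.2, 28.5, 33.6 and 28.4 in the day-6 libraries. Rora, the receptor ROR alpha that drives clock genes, was at 147, 141, 196 and 165 and 57.3, 41.9, 51.4 and 56.8 CPM. Both were lower in every day-6 library than in any untreated one, with log2 changes of -1.64 and -1.64, and both fell in intron reads as well (-1.38 and -1.42). Of 20 clock genes 14 fell (median -0.77), among them Hlf, given above, and Csnk1e, the kinase that marks PER proteins (142 ± 6.49 to 75.7 ± 9.95 CPM). Against the 4 uncultured libraries as controls, 10 clock genes fell and 1 rose, and the median of the list was -0.34. With the same controls 20 nuclear receptors fell and 2 rose, with a median of -0.39.

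Of 46 histone lysine methylases and demethylases 10 rose and 23 fell. Suv39h1, which methylates histone H3 lysine 9 in heterochromatin, rose from 60.1 ± 3.62 to 127 ± 5.21 CPM, and Kmt5a, the H4 lysine 20 monomethylase active in mitosis, from 49.4 ± 5.72 to 84.9 ± 8.29 CPM. The large H3 lysine 4 methylase genes Kmt2c and Kmt2a fell from 713 ± 31.8 to 396 ± 20.2 CPM and from 1396 ± 55.8 to 897 ± 37.1 CPM, and Prdm16, a factor needed by HSCs, from 169.5 ± 6.604 to 106 ± 6.203 CPM. In intron reads 8 of 45 genes of the list rose and 10 fell, and its median exon length was 7496 bases. Of 41 chromatin remodelers 18 rose and 14 fell. Smarca2 (BRM), an ATPase of the BAF complex, fell from 452 ± 25.02 to 226 ± 10.2 CPM, while the BAF subunits Smarcc1 and Actl6a rose from 329.6 ± 10.6 to 511 ± 18.5 CPM and from 47.5 ± 3.48 to 112 ± 9.002 CPM.

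Of 53 ubiquitin ligases and deubiquitinases 16 rose and 12 fell. Skp2, the F-box protein that sends the cell cycle inhibitor p27 for destruction, rose from 23.9 ± 4.1996 to 54.6 ± 3.82 CPM, and Trim28, a corepressor of zinc finger proteins, from 599 ± 35.4 to 973 ± 67.3 CPM. Trim47, a ligase of the tripartite motif family (chromosome 11, 116105750 to 116110235), was at 185, 144, 111 and 133 CPM in untreated and 37.9, 38.8, 39.3 and 36.4 in day-6 libraries. The groups were well apart (log2 change -1.91 ± 0.17, SE, adjusted p = 8.27e-07). Rnf167, a membrane-bound ligase of lysosomes, fell from 79.3 ± 10.02 to 36.9 ± 2.88 CPM, and the deubiquitinase gene Otud1 from 32.3 ± 4.46 to 10.4 ± 2.97 CPM.

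Of 48 G protein-coupled receptors 5 rose and 20 fell (median -0.37). S1pr1, the sphingosine 1-phosphate receptor by which blood cells leave tissues, was at 49.02, 34.02, 37.4 and 40.1 CPM in untreated and 12.99, 11.8, 10.9 and 13.1 in day-6 libraries. Gpr171 fell from 113 ± 10.3 to 37.8 ± 4.77 CPM. Rising genes were few: Adgrl1, a latrophilin adhesion receptor, was at 71.8, 86.6, 61.3 and 53.4 and 202, 229.6, 193 and 242 CPM, and F2r, the thrombin receptor PAR1, at 61.97, 78.9, 65.6 and 66.8 and 154, 181, 199.8 and 185. In none of S1pr1, Adgrl1 and F2r did the groups overlap. Ptgir, the prostacyclin receptor, rose from 1.59 ± 0.834 to 7.397 ± 1.15 CPM. Of 30 heterotrimeric G protein and RGS genes 10 rose and 6 fell, with Gnb1 and Gng5 among the risen (0.44 and 0.50) and Gng11 and Arrb1, beta-arrestin 1, among the fallen (-0.89 and -0.48).

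Of 66 cyclic nucleotide and calcium signalling genes 10 rose and 25 fell. Beside Pde2a, Adcy9, an adenylyl cyclase that makes cyclic AMP, fell from 183 ± 4.71 to 68.1 ± 8.74 CPM, Akap7, an anchor of protein kinase A, from 60.2 ± 4.77 to 25.6 ± 1.16 CPM, and Nfat5 from 648 ± 39.98 to 381 ± 3.84 CPM. Calm3, a calmodulin gene, rose from 145 ± 9.82 to 233 ± 10.3 CPM. Enzymes that make and that break cyclic AMP were thus both among the genes that fell.

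Of 56 phosphoinositide and lipid signalling genes 8 rose and 22 fell. Pik3ip1, a membrane inhibitor of PI3 kinase, was at 325, 308, 229 and 224 CPM in untreated and 97.3, 72.8, 54.5 and 76.9 in day-6 libraries, with no overlap (log2 change -1.85 ± 0.19, SE, adjusted p = 1.97e-06). Plcb2, a phospholipase C, fell from 859 ± 32.9 to 411 ± 18.7 CPM. Akt1, the kinase downstream of PI3 kinase, and Rheb, the GTPase that activates mTORC1, rose from 269 ± 8.9001 to 392 ± 5.47 CPM and from 30.5 ± 3.39 to 49.5 ± 4.26 CPM. The sestrins, stress-induced inhibitors of mTORC1, moved in opposite directions: Sesn2 rose from 22.9 ± 3.15 to 38.6 ± 1.37 CPM and Sesn3 fell from 66.3 ± 7.69 to 33.1 ± 2.82 CPM.

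Of 50 genes of MAP kinases, their phosphatases and Ras feedback 13 rose and 13 fell. Mapk11, the p38 beta kinase, was at 4.37, 2.79, 6.36 and 1.58 CPM in untreated and 21.1, 27.8, 17.6 and 23.6 in day-6 libraries (log2 change 2.60 ± 0.31, SE, adjusted p = 8.00e-06). It had the largest rise of the list, and its groups did not overlap. Rras, a small GTPase, fell from 38.6 ± 5.13 to 15.4 ± 2.15 CPM. Dusp2 and Dusp1, phosphatases that switch off MAP kinases and are immediate early genes, fell from 166 ± 72.5 to 30.4 ± 3.61 CPM and from 394 ± 190.3 to 73.9 ± 18.6 CPM.

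Of 40 sphingolipid and glycolipid genes 6 rose and 12 fell. St3gal1, a sialyltransferase of O-glycans, fell from 748 ± 34.2 to 355 ± 5.66 CPM, Acer2, the Golgi ceramidase, from 40.2 ± 5.15 to 12.6 ± 4.38 CPM, and Sgms1, sphingomyelin synthase, from 216 ± 23.4 to 132 ± 7.02 CPM. Degs1, which makes ceramide from dihydroceramide, and Cers2 rose from 23.5 ± 1.32 to 36.5 ± 5.41 CPM and from 184 ± 6.26 to 240.1 ± 8.74 CPM. Of 55 ion channels and pumps 13 rose and 19 fell. Clic5, an intracellular chloride channel protein, was at 20.6, 20.5, 29.2 and 22.5 CPM in untreated and 1.92, 0.852, 3.64 and 3.55 in day-6 libraries. Every untreated library was well above every day-6 library (log2 change -3.20 ± 0.38, SE, adjusted p = 7.56e-06). Atp2a2, the SERCA2 pump that fills the ER with calcium, rose from 226 ± 33.2 to 375 ± 9.26 CPM, while Itpr1, a channel that releases it, fell from 440.1 ± 17.3 to 293 ± 5.26 CPM. Piezo1, a stretch-activated channel, rose from 199 ± 12.1 to 266 ± 13.95 CPM.

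Of 29 Notch pathway genes 5 rose and 7 fell, shares near or below those of all genes, yet single ligands changed. Jag1, which encodes the ligand Jagged-1, was at 21.9, 16.9, 10.1 and 15.8 CPM in untreated and 66.1, 58.2, 54.1 and 45.7 in day-6 libraries. All 4 day-6 values were above the untreated range (log2 change 1.79 ± 0.20, SE, adjusted p = 4.16e-06). The ligand gene Dll4 fell from 9.38 ± 3.64 to 2.31 ± 1.32 CPM, and Numbl, related to the Notch inhibitor Numb, from 19.9 ± 1.61 to 10.9 ± 0.987 CPM. Adam10, the protease that sheds the Notch ectodomain, rose from 196 ± 16.8 to 307 ± 11.4 CPM. Of 38 Wnt pathway genes 4 rose and 8 fell. Ctnnb1, beta-catenin, rose from 464 ± 20.1 to 686 ± 36.4 CPM. Tle2, a Groucho corepressor, fell from 135 ± 12.1 to 29.9 ± 1.27 CPM, and Porcn, which acylates Wnt proteins for secretion, from 7.89 ± 1.64 to 1.52 ± 0.695 CPM.

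Of 52 junction, cadherin and guidance receptor genes 8 rose and 14 fell. Gja1, connexin 43 of gap junctions, was at 40.7, 44.5, 35.3 and 23.4 and 105, 115, 125 and 101 CPM. Its groups did not overlap, and Panx1, a related channel, rose as well (18.2 ± 0.213 to 35.1 ± 1.76 CPM). Robo4 and Alcam, adhesion and guidance receptors, fell from 155 ± 20.4 to 68.7 ± 12.6 CPM and from 72.4 ± 13.3 to 35.1 ± 6.07 CPM. Of 44 extracellular matrix genes 14 rose and 9 fell. The paired collagen IV chains Col4a1 and Col4a2, of basement membranes, rose from 129.98 ± 12.4 to 288 ± 18.2 CPM and from 156 ± 25.2 to 285 ± 13.96 CPM. Fbln1, fibulin-1, rose from 0.322 ± 0.231 to 7.68 ± 2.63 CPM, and Ltbp3, a binding protein of latent TGF-beta, fell from 284 ± 25.3 to 89.7 ± 12.1 CPM, as did Mmrn1, multimerin (336 ± 27.5 to 136 ± 13.3 CPM).

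Of 49 secreted growth factors and cytokines 7 rose and 13 fell (median -0.37). Tgfb1 rose from 101 ± 20.5 to 238 ± 8.06 CPM, Mif, macrophage migration inhibitory factor, from 98.98 ± 7.64 to 259.5 ± 13.3 CPM, and Angptl4 from 5.88 ± 1.97 to 20.6 ± 4.57 CPM. Il15 fell from 48.7 ± 5.97 to 23.7 ± 3.37 CPM, and the chemokine gene Ccl4 from 8.78 ± 3.74 to 0.659 ± 0.661 CPM, with a log2 change of -3.73, and of -4.68 without day-6 replicate 1. Of 54 proteases and inhibitors 18 rose and 11 fell. Plaur, the urokinase receptor, rose from 9.14 ± 3.08 to 19.1 ± 2.83 CPM. Dpp4, the surface peptidase CD26 that cleaves CXCL12, fell from 59.6 ± 6.29 to 17.2 ± 1.33 CPM, and Ctse, cathepsin E, from 36.99 ± 13.1 to 12.1 ± 2.16 CPM.

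Of 67 tetraspanins, lectins and leukocyte surface genes 11 rose and 20 fell. Selp, the adhesion molecule P-selectin, was at 10.5, 17.4, 29.7 and 24.1 CPM in untreated and 104, 79.5, 122 and 102 in day-6 libraries. Cd53, a leukocyte tetraspanin, was at 14.8, 20.7, 24.3 and 12.8 and 118, 61.9, 77.7 and 70.7 CPM. Both were above the untreated range in all 4 day-6 libraries (2.33 and 2.18 on the log2 scale). Clec2d, a C-type lectin and ligand of natural killer receptors, fell from 71.7 ± 12.3 to 21.3 ± 1.52 CPM, Lgals4, galectin-4, from 28.8 ± 2.797 to 7.92 ± 2.598 CPM, and Cd27 from 131 ± 2.84 to 67.6 ± 6.58 CPM. Of 8 GIMAP genes, GTPases of lymphocytes and HSCs that cluster in the genome, 5 fell and 1 rose. Gimap6 fell from 201 ± 20.7 to 132 ± 16.3 CPM and Gimap8 from 106 ± 5.32 to 69.1 ± 5.32 CPM, whereas Gimap4 was at 10.5, 8.05, 8.22 and 7.75 and 15.8, 13.6, 19.7 and 17.4 CPM. The rise of Gimap4 was lost without any 1 of untreated replicate 2, untreated replicate 3, untreated replicate 4, day-6 replicate 3 or day-6 replicate 4 (adjusted p = 0.0527 to 0.0696).

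Long noncoding RNA genes are annotated without exons in the files, so their reads stand in the intron column, and their CPM are scaled to the intron reads of the genes in that fit. Of 1636 such genes 103 rose (6.296%) and 279 fell (17.1%), against 14.4% and 12.7% of all 14996 genes in the fit. Level alone went with a similar skew in exon reads. In the lowest of 5 equal groups of genes by mean log2 CPM, 9.35% rose and 22.5% fell, against 34.6% and 30.8% in the highest. The part of level in the noncoding shares was not tested. Malat1, a nuclear RNA of splicing speckles, was at 3960.2, 4046, 3566 and 4017 CPM in untreated and 1505, 1551, 1468 and 1359.6 in day-6 libraries. Its neighbour Neat1, the scaffold of paraspeckles, was at 954, 639.7, 655 and 853 and 331, 298, 256 and 279 CPM. Both fell in every day-6 library relative to every untreated one, with log2 changes of -1.41 and -1.41. Pvt1, the neighbour of Myc, was at 102, 147, 148 and 171 and 496, 531, 494 and 513 CPM, a rise without overlap (log2 change 1.84 ± 0.18, SE, adjusted p = 8.77e-06).

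Meg3, the maternally expressed RNA of the imprinted Dlk1 locus, was at 119, 111, 56.6 and 82.6 CPM in untreated and 0.532, 2.01, 0.0761 and 1.67 in day-6 libraries. The untreated libraries differed widely, but the day-6 libraries were all below them (log2 change -6.45 ± 1.18, SE, adjusted p = 9.69e-04). Of 36 named noncoding and snoRNA host genes 10 rose and 9 fell. Snhg1, a host of small nucleolar RNAs, rose from 52.4 ± 5.55 to 82.5 ± 8.59 CPM and Tug1 from 76.1 ± 7.67 to 109 ± 6.23 CPM, while Snhg18, also named as a host gene and low in both groups, fell from 1.54 ± 0.982 to 0.3099 ± 0.252 CPM and Lncpint, a p53-induced RNA, fell from 1326 ± 254 to 701 ± 68.5 CPM. Counting by strand is not stated for these files, so reads of an overlapping or antisense gene cannot be told apart from those of the noncoding gene. The noncoding genes named here were chosen after their values were seen.

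For genes annotated with exons, intron reads come largely from unspliced RNA, and they were not used by the exon-read calls above. Introns took 65.1 ± 1.28% of reads on genes with exons in untreated and 57.5 ± 0.867% in day-6 libraries (n = 4 each), and the groups did not overlap. The two-sided exact permutation p was 0.0286, the smallest possible with 70 divisions, and 0.143 adjusted over 5 such values. The number of genes detected (14664 ± 72.4 and 14662 ± 70.3) and the share of reads on the 10 most abundant genes (4.96 ± 0.424% and 4.83 ± 0.152%) had exact permutation p of 0.943 and 0.743. Exon and intron reads were scaled separately, each to its own TMM-adjusted total, so the lower intron share at day 6 does not enter the intron changes. An intron change near 0 means no change relative to the intron reads of other genes. Among 10615 genes with at least 20 intron reads on average in each group, 1362 of 2935 that rose in exon reads also rose in intron reads (46.4%) and 29 fell. Of 2764 that fell in exon reads, 1063 fell in intron reads (38.5%) and 26 rose.

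Some genes changed in opposite directions in the 2 readouts. For Actb the exon change was 0.84 and the intron change -1.57. Actg1, gamma-actin, was at 889, 988, 1191 and 1069.7 CPM of exon reads in untreated and 2211, 2019, 2098 and 1827 in day-6 libraries (0.98), while its intron reads fell (-1.62). The same pattern held for Arpc3 of the actin branching complex (0.91 and -1.14) and Tuba1c (1.15 and -1.38). Actin, Arpc3 and tubulin mRNAs were higher in exon reads while their intron reads were lower. In the other direction, Sult1a1, a sulfotransferase of phenols, was at 345, 242, 149.5 and 155 and 55.8, 63.04, 45.8 and 45.2 CPM of exon reads, a change of -2.09, with a smaller fall in intron reads (-0.35). Fam193b fell by the exon reads (151 ± 10.3 to 65.99 ± 3.87 CPM) with an intron change of 0.09, and Osbpl5, an oxysterol-binding protein, had -1.53 and 0.08. Scml2, a Polycomb-related gene, fell in exon reads (-0.68) and rose in intron reads (0.87), with the exon call lost without untreated replicate 4 (adjusted p = 0.0524). These genes were chosen as those with the widest gap between both changes, each of which is relative to its own total.

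**Figure D4:**
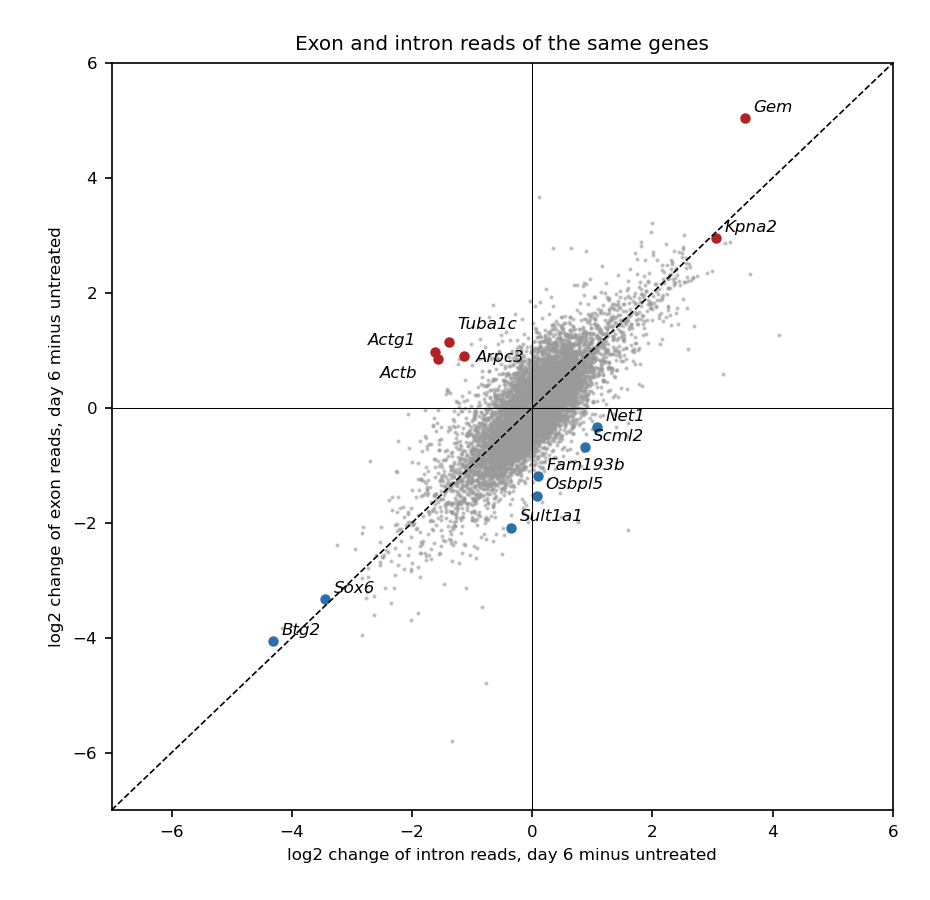
Each grey point is a gene with at least 20 intron reads on average in each group, by its log2 change in intron reads (horizontal) and exon reads (vertical), day 6 minus untreated, with the line of equality dashed. Intron and exon reads were each scaled to their own total. Kpna2 and Btg2 lie near the line, whereas Actb, Actg1, Arpc3 and Tuba1c lie at upper left (exon reads higher, intron reads lower) and Sult1a1, Osbpl5, Fam193b, Scml2 and Net1 lie below the line.

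The calls moved with gene length. Genes were divided into 5 equal groups by summed exon length. In the group with the shortest exons (median 1372 bases), 38.6% rose and 13.8% fell, with a median log2 change of 0.22. In the group with the longest (median 8096 bases), 15.1% rose and 39.3% fell, with a median of -0.22. By the whole span of the gene, 27.7% rose and 22.2% fell in the shortest group and 15.1% and 33.8% in the longest. In intron reads the medians of the exon length groups stayed between 0.02 and 0.05. The cause of this trend was not tested.

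**Figure D5:**
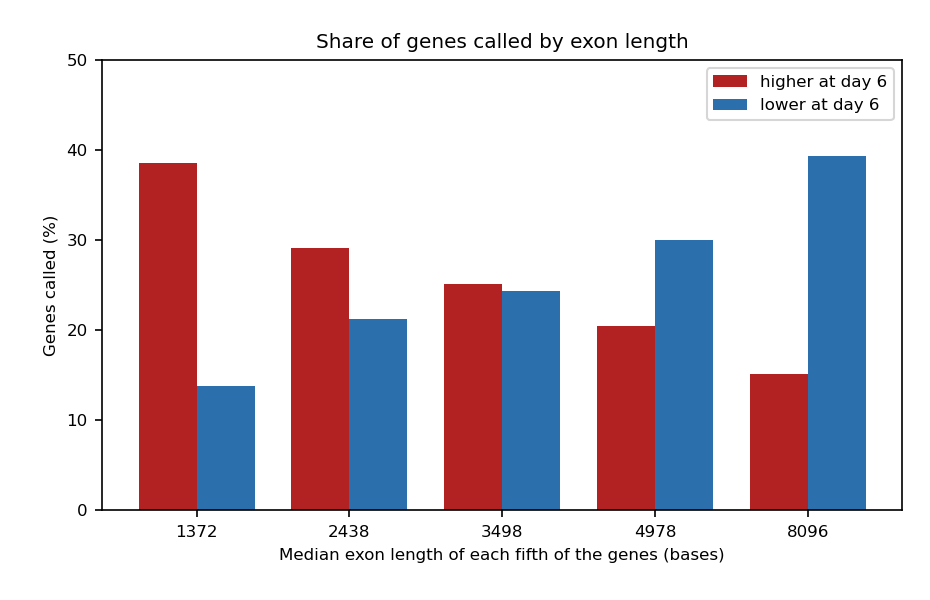
Share of genes called higher (red) and lower (blue) at day 6, in percent, in 5 equal groups of genes ordered by summed exon length (horizontal axis, median length in bases). The red bars decline from 38.6% to 15.1% and the blue bars climb from 13.8% to 39.3% from the shortest to the longest genes.

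The most abundant transcripts, compared per kilobase of exon, were largely the same kinds in both groups. In day-6 libraries Actb was at 4388, the ribosomal protein gene Rpl41 at 3812 and the elongation factor gene Eef1a1 at 3767 CPM per kilobase. In the untreated libraries Eef1a1 was at 3905, Rpl41 at 2612 and Actb at 2449. Hbb-bs, adult beta-globin, was at 2610.4 CPM per kilobase there and 14.7 at day 6, a log2 change of -7.47, and of -8.08 without day-6 replicate 2. Its near copy Hbb-bt was at 1355 and 545 CPM per kilobase, a log2 change of -1.31 (adjusted p = 0.0219). That call was lost with uncultured controls (-0.14, 0.886), with unique exon reads (-0.96, 0.0836), with all 30 libraries (0.126), without untreated replicate 1 (-0.91, 0.0983), without day-6 replicate 4 (0.0583) and without both libraries that stood apart (0.0649), and reads shared between the 2 genes make both uncertain. Ptma, the nuclear protein prothymosin alpha, rose from 1179.6 ± 67.8 to 2118 ± 192 CPM. Among the 200 most abundant genes, the steadiest were Rpl6 (log2 change of -0.000893, SE 0.06), Rps24, Rpl12, Rpl10a and Rps4x of the ribosome, the kinase gene Wnk1 and the speckle gene Son (log2 change of -0.03 ± 0.06). Rpl6 was at 1192, 1093, 1079.6 and 1170.4 CPM in untreated and 1116, 1173, 1094 and 1149.8 in day-6 libraries, so the groups overlapped.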

How the data were processed

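RNA-seq libraries of 100 sorted cells were compared, 4 taken 6 days after 5-FU and 4 untreated. The authors deposited 1 table per library with counts per gene of all exon reads, of uniquely placed exon reads and of intron reads, per the file headers, on mm10 per the submitters' processing notes; aligner, counter and use of strand: not given in the sources used here. Rows with the same gene identifier were summed. Depth is given at the start of the results, and the counts carry no molecular identifiers. edgeR 4.0.16 (R 4.3.3) was fitted to the exon counts of the 14 libraries of the 5-FU experiment with TMM scaling, its expression filter and the quasi-likelihood test, with Benjamini-Hochberg adjustment over 12886 genes. Intron counts were fitted in the same way. SE is the log2 change divided by the square root of F. The script was tested on simulated data.

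Members and lists were chosen with earlier results of these data known. The genes named are the 30 largest rises and falls without overlap, up to 3 genes with the smallest p per list and direction, the most abundant, absent, widest-spread and flattest genes, and those with the widest gap between exon and intron change; a few of these are not reported here. Promoters are RefSeq entries (GRCm38.p6). The alternatives were DESeq2 1.42.0, its size factors, no filter, the 2 groups alone, all 30 libraries, a replicate block, unique exon reads, uncultured controls, each library left out, a 2-fold threshold and a 250-base window for motifs and, chosen after seeing the data, both set-apart libraries left out.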

Additional observations from a re-analysis of the deposited data

Results flagged for a closer look

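In groups of 4 libraries, a value was marked where its gap to the nearest other library took most of the group's range, by Dixon's 95% limit. Of 501 groups of 4 values tested, 45 were marked, and chance marks about 1 in 20. The marked values are CPM and are given by library.

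Day-6 replicate 1 was the highest of its group for S100a8 at 1.03, Csf1r at 96.4, Adgre1 at 46.9, Ccl6 at 221, Lgmn at 141, Hmox1 at 722, Slc40a1 at 257, Lpl at 186, Lgals3 at 129, Ctss at 136, Ampd3 at 27.9, Slc25a37 at 164, Actb at 9079.96, Lyz2 at 1330.1 and Mpo at 0.148. Day-6 replicate 1 was the lowest of its group for Ran at 631, Nop10 at 96.3, Hspa9 at 239 and Trim28 at 873. Untreated replicate 3 was the highest of its group for S100a8 at 911, S100a9 at 267, Luc7l2 at 568, Eef2k at 402, Adam10 at 221 and Lcn2 at 56.6. Untreated replicate 2 was the highest of its group for Kpna2 at 45.2, Nek2 at 13.6, Kif4 at 12.2 and Tuba1c at 67.1. Untreated replicate 2 was the lowest of its group for Ltbp3 at 247, Lncpint at 947 and Ppp1r15a at 111. Untreated replicate 1 was the highest of its group for Zbtb16 at 169, Gimap8 at 114, Snhg18 at 3.01 and Lrp1 at 68.1. Untreated replicate 4 was the highest of its group for Rhob at 211, Smarca2 at 489.6 and Numbl at 22.3. Day-6 replicate 2 was the highest of its group for Spcs3 at 212, Kdelr2 at 238 and Egr1 at 154. Day-6 replicate 2 was the lowest of its group for Cd27 at 57.8. Day-6 replicate 4 was the highest of its group for Mapre3 at 8.03. The share of intron reads in day-6 replicate 3, 56.2%, was marked as the lowest of its group. Of the values in day-6 replicate 1 that were marked as highest, those of Csf1r, Adgre1, Ccl6, Lgmn, Hmox1, Slc40a1, Lpl, Lgals3, Ctss and Lyz2 are macrophage genes or genes that macrophages express, and the level of 0.148 CPM for Mpo is about that of 1 read.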

How the results depend on the processing

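Over all alternatives, 2913 to 3494 genes rose and 2867 to 3537 fell, all within 1.5 times the reported counts. Leaving out 1 library at a time gave 2969 to 3187 and 2976 to 3156. With replicate number as a block, 3249 genes rose and 3284 fell. Deviations of libraries with the same number had correlations of -0.010 to 0.105, so the numbers were not taken to pair the libraries. The share of promoters with TTTGAA among rising genes was 20.7% at a threshold of 2-fold and 23.6% in the 250 bases before the start. With CCAAT as well it was 13.2% and 15.8%. The 2-fold threshold takes in more promoters, 834 in place of 165. The 250-base window holds the same 165 promoters without the bases after the start, and TTTGAA was in 39 of them in place of 59. Against uncultured controls the sign turned for Eef1a1 (0.30) and Rps24 (0.31), and the cause was not tested. The log2 change of Lyz2 ran from -0.69 to 1.01 as 1 library was left out, lowest without day-6 replicate 1. The noncoding genes were fitted in the main setting alone. A gene under about 3 reads per library cannot be told apart from absence at this depth.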
